A study of Mus musculus with 12 samples.

Results

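Transcript levels were compared between activated mouse CD8+ T cells kept in a gel of rat tail collagen and cells kept in a gel of bovine collagen. The comparison rests on the 3 libraries labelled RatCol and the 3 labelled Nutragen, 6 of the 12 libraries of the series, and covers all 55291 gene symbols of the deposited count table. All cells were CD8+ T cells taken from spleens and lymph nodes, the donors being male mice of wild-type genotype. They were stimulated for 2 days with anti-CD3 on the plate and CD28 in solution and kept for 1 more day in recombinant mouse interleukin 2 (rmIL-2). On day 3 they were placed in a gel of either collagen at 2 mg/mL, where they stayed for 24 h, and RNA was taken on day 4. The labels name 3 mice per group and give neither age nor strain, and they do not say whether equal replicate numbers mark the same mouse. Differences of collagen species, of commercial product and of gel preparation cannot be told apart in this design, since each gel is 1 product. Cells of the same day kept in liquid media (3 libraries) entered the same fit and are given as levels for orientation.

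CD8+ T cells are the cytotoxic cells of the adaptive immune system. After activation they leave and enter lymph nodes and tissues under the control of chemokine receptors, receptors for sphingosine 1-phosphate and adhesion proteins, and some become resident memory cells that stay in a tissue and lower the receptors used to leave it. Gels of fibrillar type I collagen are used as a model of the matrix that such cells meet in tissue, and integrins and other collagen receptors, the actin network and ion channels are the routes by which a cell can sense it. The title of the series concerns mechanosensing by T cells and the resident memory program, and the comparison of both gels asks how far the response depends on the collagen used.

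Levels are CPM (counts scaled to library size) scaled with TMM factors, changes are log2 fold changes of rat tail over bovine gel from edgeR, and a gene is called changed at an adjusted p under 0.05. Totals of the 6 gel libraries ran from 28483064 to 52949738 counts. On the first principal component of the 9 day 4 libraries, which carried 95% of the variance (500 genes of highest variance), the rat tail libraries lay from 64.8 to 71 and the bovine and media libraries together from -36 to -28.8. Among genes with a mean of 1 CPM or more in at least 1 group, the means of bovine gel and media were within 1.5-fold of each other for 97.4%, those of rat tail gel and bovine gel for 64.4% and those of rat tail gel and media for 61.5%. The share of counts in ribosomal RNA genes was 6.57%, 12% and 5.65% in the bovine libraries and 11.2%, 5.22% and 13.4% in the rat tail libraries (exact permutation p = 0.7, two-sided). This share thus varied within both gels and the groups overlapped.

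The labelled cell type was checked against its markers. All 10 markers of CD8 T cells were expressed in both gels, with a summed level of 4754 to 5022 CPM in bovine and 3225 to 3453 CPM in rat tail libraries. Cd8a was at 629, 638 and 742 CPM in the bovine libraries and at 528, 561 and 661 CPM in the rat tail libraries (log2 change -0.20, adjusted p = 0.145). Of the 10 markers 7 fell and 3 (Cd8a, Cd8b1 and Cd3e) did not pass the test (median log2 -0.57). Several, though not all, markers of other cells were at or near 0 in both gels. These were Ms4a1 and Pax5 of B cells, Lyz2, Csf1r, S100a8 and S100a9 of myeloid cells, and Dcn, Lum and Col3a1 of fibroblasts. Each had at most 19 counts over the 3 libraries of a gel, and S100a8, S100a9 and Lum had 0 counts in all 6 libraries. Other members of the same marker lists were expressed or moved. Of 10 B cell markers 5 were tested, 1 rose and 1 fell, with summed levels of 917 to 1085 CPM in bovine and 717 to 1039 CPM in rat tail libraries, nearly all of it Ighm. Of 15 myeloid markers 5 were tested, 2 rose and 3 fell (23.9 to 44.4 against 23.9 to 30.8 CPM). Of 12 markers of NK, gamma-delta and CD4 T cells 9 were tested, 3 rose and 3 fell (52.8 to 63.8 against 90.2 to 107 CPM) with Klrb1c among the rises. Of 11 markers of fibroblasts and endothelium 4 were tested, 2 rose and 1 fell (125 to 143 against 73.4 to 79.8 CPM, nearly all of it Pecam1). Col1a1 was among the rises (log2 change 3.68, adjusted p = 1.49e-07). Of 10 markers of red cells and platelets 4 were tested, 1 rose and 3 fell, with sums of at most 6.16 CPM. In bulk samples, fewer cells of a type and less RNA per cell cannot be told apart, and the part of such cells in the results below was not tested.

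Of 19392 genes tested, 10617 (54.7%) changed. In rat tail gel 5499 (28.4%) were higher and 5118 (26.4%) lower, and the median log2 fold change of all tested genes was near 0 (0.00256, quartiles -0.387 and 0.53). Scaling by library totals instead of TMM factors moved the median to 0.15 and the calls to 6329 higher and 3221 lower, so changes of this size depend on the scaling. The large changes were mostly rises of genes with low levels in bovine gel. At 2-fold or more 2963 genes rose and 1209 fell, at 4-fold or more 1424 and 234, and at 16-fold or more 421 and 25. Genes that rose 2-fold or more had a median level of 0.381 CPM in bovine and 1.96 CPM in rat tail gel, and genes that fell as far had medians of 14.6 and 4.58 CPM. A mean of 1 CPM or more in one gel with less than 0.1 CPM in the other was seen for 158 genes in rat tail gel and for 5 in bovine gel. Libraries of the gels did not overlap in 63.9% of tested genes. Without the 3 gel libraries with the highest share of ribosomal RNA (bovine replicate 2, rat tail replicates 1 and 3), which leaves 1 rat tail library assumed to vary like the others, 5485 genes were called.

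**Figure D1:**
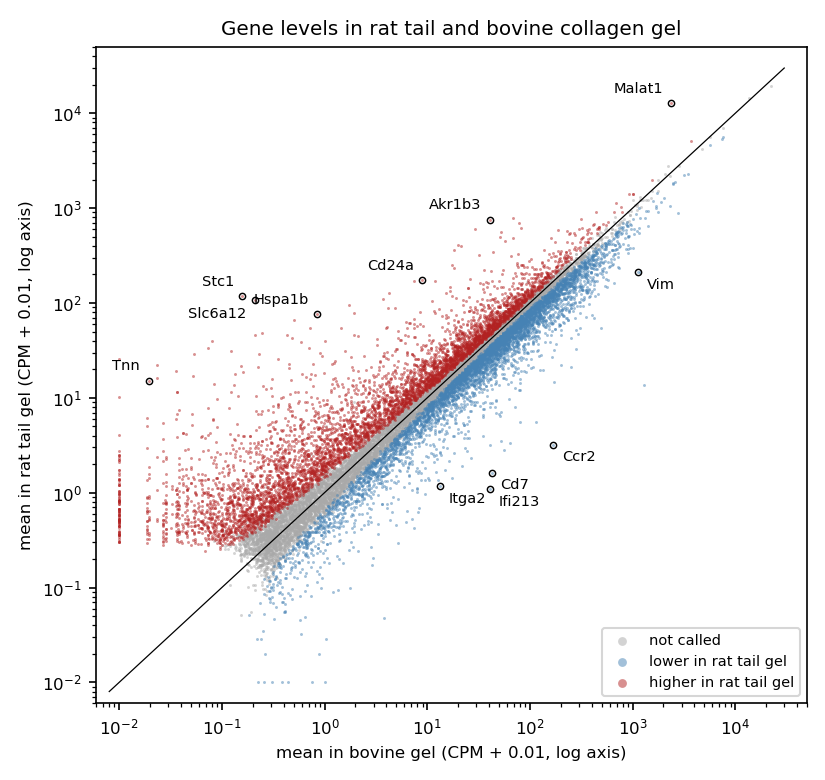
Mean level of each tested gene in bovine gel (x axis) and rat tail gel (y axis), both in CPM on log axes with 0.01 added, with genes higher in rat tail gel in red, lower in blue and the others in grey. The cloud spreads further above the diagonal at low bovine levels, where Slc6a12, Stc1 and Tnn lie, than below it, where Ccr2 and Ifi213 lie.

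Among the largest rises were genes that were almost silent in bovine gel. Accsl, a relative of the enzymes that make aminocyclopropane carboxylate in plants, had 0 counts in the 3 bovine libraries and 34.6, 22.4 and 20.5 CPM in the rat tail libraries, at least 837-fold higher against a floor of 3 counts over the group. Prrg3, a small membrane protein gene, also had 0 counts in bovine gel, and reached 14.7, 9.33 and 6.41 CPM, at least 331-fold higher. Stc1, the gene of the secreted hormone stanniocalcin (chromosome 14, 69029238 to 69041804 of GRCm38), was at 0.167, 0.2 and 0.0762 CPM in bovine and 123, 119 and 109 CPM in rat tail libraries (log2 change 9.68, adjusted p = 1.06e-10). These 3 genes were thus expressed in every rat tail library, and the bovine libraries together held at most 14 counts of any of them. Tnn, a tenascin of the extracellular matrix, had 1 count in bovine gel and 20.6, 13.6 and 11.1 CPM in rat tail gel, a ratio of 1475 with a counting interval of 264 to 58296. Chst1, a sulfotransferase of keratan sulfate, had 1 count against 30.2, 19.3 and 16.3 CPM (ratio 2138, 383 to 84473). Grin2c, a subunit of NMDA glutamate receptors, reached 20, 17.7 and 10.7 CPM from 1 count (ratio 1638, 294 to 64732). Npr1, a receptor for natriuretic peptides, rose from 0.0437 ± 0.0406 to 29.3 ± 6.07 CPM (log2 change 9.41, adjusted p = 2.33e-08), and Tenm4, a teneurin of neuronal contacts, from 0.0639 ± 0.0575 to 33.9 ± 3.67 CPM (log2 change 9.07, adjusted p = 8.05e-09). In each of these genes rat tail replicate 1 was the highest library. With so few bovine counts the fitted values hang on single libraries: Npr1 was at log2 8.80 without bovine replicate 1, and Tenm4 at 9.94 without bovine replicate 1 and at 8.38 without bovine replicate 3. Tal2 and Scube3, with 3 and 2 counts in bovine gel, each in 1 library, had ratios of 626 (214 to 3038) and 573 (158 to 4733). Intervals and floors cover counting error only.

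The largest falls were of expressed genes, and most are described with their groups (Ccr2, Gpr183, Cd7, Rap1gap2, Selp and 4 HIN-200 genes). Outside these, Anxa1, which encodes the phospholipid-binding annexin A1, was at 8.59, 7.78 and 5.94 CPM in bovine and 0.419, 0.569 and 0.255 CPM in rat tail libraries (log2 change -4.09, adjusted p = 3.83e-06). Bace1, a beta-secretase, went from 6.95, 8.7 and 8.86 to 1.05, 0.686 and 0.113 CPM (log2 change -3.71, adjusted p = 8.17e-06). Bovine and rat tail libraries were apart in both, which the rule for naming the largest changes required. Other annexins and S100 proteins moved in both directions (5 rises and 6 falls in 14): Anxa2 fell 3.06-fold (log2 change -1.61, adjusted p = 1.29e-05), and S100a6 rose 2.21-fold (log2 change 1.15, adjusted p = 0.00675) and S100a4 2.94-fold (log2 change 1.56, adjusted p = 0.0165).

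Some genes of osmolyte uptake were among the strongest rises. Cells in a medium of raised tonicity take up or make small organic solutes, and the transcription factor NFAT5 drives the genes for it. Slc6a12, the transporter of betaine and GABA, was at 0.251, 0.12 and 0.228 CPM in the bovine libraries and 139, 104 and 82.9 CPM in the rat tail libraries, 512-fold higher (adjusted p = 3.17e-09). In media it was at 0.0378, 0.0702 and 0 CPM. Slc5a3, the sodium-dependent transporter of myo-inositol, went from 23.5, 20 and 20.2 to 479, 394 and 334 CPM, 18.9-fold (log2 change 4.24, adjusted p = 5.12e-09). Akr1b3, the aldose reductase that makes sorbitol, went from 43.8, 40.3 and 38.7 to 1020, 658 and 597 CPM, 18.5-fold (log2 change 4.21, adjusted p = 2.59e-08). The rat tail libraries lay far above all bovine libraries in each of the 3 genes, and replicate 1 was again the highest. Nfat5 itself rose 7.47-fold, from 81.7 ± 5.43 to 610.3 ± 32.5 CPM (log2 change 2.90, adjusted p = 1.32e-08). Smaller rises were seen for the taurine transporter Slc6a6 (log2 change 0.75, adjusted p = 3.88e-05) and the neutral amino acid transporter Slc38a2 (log2 change 0.91, adjusted p = 2.24e-06). The sodium, potassium and chloride cotransporter Slc12a2 (log2 change 1.09, adjusted p = 7.15e-06) and the kinase Sgk1 (log2 change 0.82, adjusted p = 5.51e-05) rose as well. The list did not move as one. Of its 28 genes 25 passed the filter on low counts, 13 rose, 10 fell and 2 did not pass the test (median log2 0.32). Falls included the channel subunits Lrrc8c (log2 change -0.88, adjusted p = 2.86e-06) and Lrrc8a (log2 change -0.55, adjusted p = 5.07e-05), which release osmolytes from swollen cells. Also lower were the urea transporter Slc14a1 (log2 change -1.87, adjusted p = 3.18e-06), the water and glycerol channel Aqp3 (log2 change -2.02, adjusted p = 0.00652) and Tsc22d3, known as a glucocorticoid-induced gene (2-fold lower, adjusted p = 2.01e-05). Aqp3 fell by 2.70 on the log2 scale without rat tail replicate 3.

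The promoter of Slc6a12 is shown because it holds the element that NFAT5 is known to bind. In the 250 bases before the RefSeq start site (build GRCm38.p6), the tonicity element was found in chr6:121342475-121342533, plus strand, and it stands in capitals, 5′ to 3′.
Slc6a12: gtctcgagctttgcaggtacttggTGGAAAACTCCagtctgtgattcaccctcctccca
The element was searched on both strands and was present in 4.31% of all 32851 RefSeq promoters of this length. Of the 18 osmolyte genes with a promoter entry only Slc6a12 and the kinase Stk39 (log2 change 0.72, adjusted p = 5.97e-05) held it in any entry, and both rose. Among all 470 tested genes whose window holds the element 39.6% were higher and 22.6% lower in rat tail gel, against 34% and 28.3% of the 11130 tested genes with a promoter entry.

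**Figure D2:**
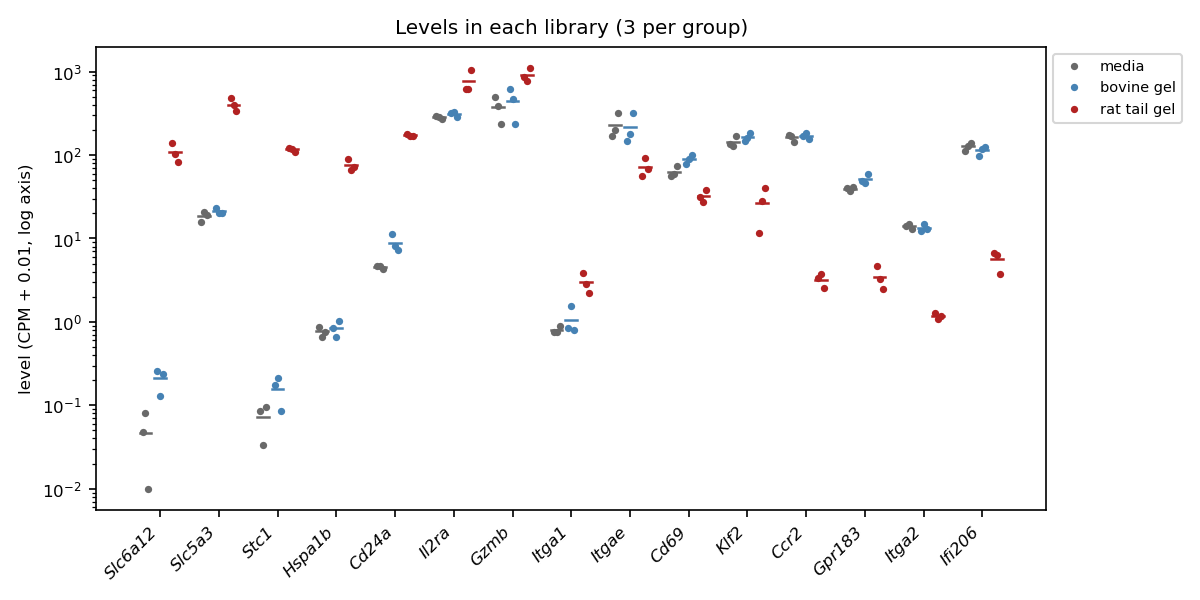
Level of 15 genes in each library (CPM, log axis, 0.01 added), with 1 point per library of media (grey), bovine gel (blue) and rat tail gel (red) and a bar at each group mean. The rat tail points of Slc6a12, Stc1, Hspa1b and Cd24a lie above all bovine and media points, and those of Ccr2, Gpr183, Itga2 and Ifi206 lie below them.

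Over the list of heat shock proteins and co-chaperones 22 of 24 genes were tested, 13 rose, 3 fell and 6 did not pass (median 0.58). The inducible HSP70 genes, which are made under protein-folding stress, and the HSP110 genes described here, large relatives that act with them, rose. Hspa1b went from 0.837, 0.642 and 1.02 CPM in bovine to 90.6, 67 and 71.1 CPM in rat tail libraries (log2 change 6.48, adjusted p = 1.03e-09) and Hspa1a from 0.809, 0.601 and 0.736 to 65.8, 46 and 51.4 CPM (log2 change 6.22, adjusted p = 1.23e-09), and since both copies are nearly identical their reads may be split between them. Hsph1 rose 10.8-fold, from 51.9 ± 9.1 to 562 ± 106 CPM (log2 change 3.44, adjusted p = 3.23e-08), Hspa4l 9.92-fold (log2 change 3.31, adjusted p = 5.08e-09) and Hspa4 3.18-fold (log2 change 1.67, adjusted p = 9.62e-08). The small heat shock protein gene Hspb1, with 1 count in bovine gel, reached 1.59, 1.82 and 2.16 CPM (ratio 186, 33 to 7360). The constitutive HSP70 gene Hspa8 fell from 1766, 1601 and 1667 to 1052, 1076 and 1069 CPM (log2 change -0.65, adjusted p = 6.18e-05), its partner Dnajb1 fell (log2 change -0.55, adjusted p = 0.000117), and Hsp90aa1 did not pass (log2 change -0.02, adjusted p = 0.876, interval -0.27 to 0.22).

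Among 20 tested targets of ATF4, the factor of the amino acid response, 13 rose and 0 fell (median 0.36), 65% called against 54.7% of all genes. Chac1, which degrades glutathione, rose from 0.588 ± 0.192 to 4.62 ± 1.7 CPM (log2 change 3.01, adjusted p = 1.25e-05) and Nupr1 from 0.0942 ± 0.0379 to 1.5 ± 0.918 CPM (log2 change 3.99, adjusted p = 9.3e-05), whereas Trib3 did not pass (log2 change -0.54, adjusted p = 0.115). Rat tail replicate 3 was the highest library in both rises, and Nupr1 was at log2 3.39 without it. With offsets for GC content and length 6 ATF4 targets rose and 3 fell. For the unfolded protein response of the endoplasmic reticulum 7 of 20 tested genes rose and 6 fell (median 0.07). The share called was 65%, against 54.7% of all genes. With library totals 9 rose and 2 fell. Xbp1, its transcription factor, rose 2.21-fold (log2 change 1.15, adjusted p = 1.55e-05) and the chaperone Hspa5 by log2 0.46 (adjusted p = 0.00258), while the sensor Atf6 fell (log2 change -0.87, adjusted p = 4.32e-06). Of 18 tested genes of oxidative stress 4 rose and 7 fell, 61.1% called against 54.7% of all genes. With library totals 4 rose and 4 fell. Osgin1, an oxidative stress growth inhibitor, went from 0.983 ± 0.207 to 18.3 ± 2.33 CPM (log2 change 4.22, adjusted p = 1.26e-08), and Txnip, the inhibitor of thioredoxin, fell from 579 ± 46.7 to 270.2 ± 56.5 CPM (log2 change -1.10, adjusted p = 4.9e-05).

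Receptors that guide T cells between blood, lymph nodes and tissue were mostly lower in rat tail gel. Of 25 receptors for chemokines, sphingosine 1-phosphate and other attractants 19 were tested, 5 rose, 12 fell and 2 did not pass (median -0.89). Ccr2, the receptor for inflammatory CCL2 (chromosome 9, 124101950 to 124113557), was at 168, 185 and 157 CPM in the bovine and 3.35, 3.73 and 2.52 CPM in the rat tail libraries, 52.3-fold lower (log2 change -5.71, adjusted p = 1.03e-09). Gpr183, which senses oxysterols in lymphoid organs, fell from 49.1, 46.7 and 60.1 to 4.7, 3.24 and 2.5 CPM (log2 change -3.91, adjusted p = 2.59e-08). The libraries of both gels were far apart in these genes, and the rule for naming them required libraries that do not overlap. Bovine gel stood near media, where Ccr2 was at 163 ± 16.6 CPM. S1pr1, the receptor for exit from lymph nodes and tissues, fell 3.54-fold, from 326 ± 9.71 to 92 ± 8.04 CPM (log2 change -1.83, adjusted p = 1.92e-08). Its relative S1pr4 fell 4.43-fold (log2 change -2.15, adjusted p = 1.42e-08). Ccr7, the receptor for lymph node entry, fell less, from 323, 335 and 379 to 209, 253 and 293 CPM (log2 change -0.46, adjusted p = 0.00604), a fall that did not pass with library totals (log2 -0.32, adjusted p = 0.0532 by edgeR). Cxcr3 and Cxcr4 fell as well (log2 change -0.69, adjusted p = 0.000132 and log2 change -1.08, adjusted p = 4.04e-06). The 5 that rose had low to moderate levels. S1pr2, a receptor that holds cells back, rose from 8.51 ± 0.897 to 19.9 ± 1.49 CPM (log2 change 1.23, adjusted p = 3.81e-06), and the gut homing receptor Ccr9 from 6.52 ± 2.89 to 17.4 ± 3.49 CPM (log2 change 1.40, adjusted p = 0.00476). Ccr6 rose from 0.209 ± 0.129 to 1.18 ± 0.41 CPM (log2 2.42, and 3.12 without bovine replicate 3) and Ccr8 to 0.621 CPM. The follicle receptor Cxcr5 rose by log2 0.48 (adjusted p = 0.00521).

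Adhesion genes of homing also fell in majority, 12 of 19 tested against 5 rises (7 falls with library totals). Selplg, the ligand of P-selectin on leukocytes, fell from 645 ± 37.5 to 259 ± 48.9 CPM (log2 change -1.32, adjusted p = 4.31e-06). The sialyltransferase St3gal6, which helps to build selectin ligands, fell 6.46-fold (log2 change -2.69, adjusted p = 1.42e-07), and Itgb7, partner of the gut homing integrin, fell 1.98-fold (log2 change -0.99, adjusted p = 1.56e-06). Selp, P-selectin itself, went from 5.2 ± 1.98 to 0.288 ± 0.169 CPM (log2 change -4.05, adjusted p = 1.82e-05, and log2 -4.64 without rat tail replicate 2). In the other direction Fut4, a fucosyltransferase, rose 6.69-fold (log2 change 2.74, adjusted p = 3.43e-08), and the integrin chains Itga4 (log2 change 0.72, adjusted p = 0.000171) and Itgal (log2 change 0.43, adjusted p = 0.00093) rose.

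Genes that resident memory T cells are known to express weakly were lower in rat tail gel, and genes that such cells express strongly went both ways. Of 23 genes of the first list 20 were tested, 15 fell, 2 rose and 3 did not pass (median -1.41). Klf2, the factor that maintains S1pr1, was at 148, 162 and 183 CPM in bovine and 11.7, 28.5 and 39.8 CPM in rat tail libraries (log2 change -2.62, adjusted p = 0.000566). All rat tail libraries were below all bovine ones, and replicate 1 was well below the other rat tail libraries. Rasgrp2, the exchange factor of Rap1, fell 6.04-fold (log2 change -2.59, adjusted p = 1.65e-08), Ripor2 5.58-fold (log2 change -2.48, adjusted p = 9.3e-09) and the receptor of interleukin 7, Il7r, 2.8-fold (log2 change -1.48, adjusted p = 8.06e-08). Tbx21, a factor of effector cells, rose from 58.4, 50.9 and 43.3 to 102, 97.2 and 85.4 CPM (log2 change 0.90, adjusted p = 0.000133), and Tcf7, a factor of stem-like cells, did not pass (1169, 1303 and 1598 against 1102, 1277 and 1247 CPM, log2 change -0.17, adjusted p = 0.288).

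Of 38 genes that mark resident memory cells by high expression, all of them tested, 21 rose, 9 fell and 8 did not pass (median 0.83, against 0.00256 for all genes). Members of the list fell as well as rose. Cd69, which retains cells by pulling S1PR1 from the surface, was at 79.1, 90.3 and 99.6 CPM in the bovine and 31.4, 27.7 and 38 CPM in the rat tail libraries (log2 change -1.47, adjusted p = 5e-06). Itgae, the CD103 integrin chain that binds E-cadherin, was at 147, 181 and 317 and 56.6, 93.5 and 68.8 CPM (log2 change -1.56, adjusted p = 0.00575). Cxcr6, a receptor of tissue residence, was at 84.5, 76.4 and 81.7 and 16.4, 14.4 and 11.7 CPM (log2 change -2.51, adjusted p = 5.66e-08). Rat tail and bovine libraries did not overlap in these genes, and for Itgae the bovine libraries themselves spread from 147 to 317 CPM. Zfp683, which encodes the residency factor Hobit, fell at a low level, from 2.09 ± 0.343 to 0.977 ± 0.182 CPM (log2 change -1.09, adjusted p = 0.00157), and Prdm1, which encodes Blimp-1, did not pass (27.6, 22.7 and 10 against 11.7, 8.43 and 4.6 CPM, log2 change -1.28, adjusted p = 0.0643). With the replicate number as a block in the fit Prdm1 passed as a fall (log2 -1.27, adjusted p = 8.37e-07 by edgeR), but whether equal numbers mark a shared source was not tested. The rises included Cdh1, which encodes E-cadherin, from 0.455 ± 0.0723 to 10.9 ± 2.99 CPM (log2 change 4.57, adjusted p = 6.24e-07), and the ectonucleotidase Entpd1 (CD39) from 10.4 ± 1.75 to 45.4 ± 6.74 CPM (log2 change 2.13, adjusted p = 4.85e-07). They also included the nuclear receptor Nr4a2 (log2 change 1.87, adjusted p = 2.53e-07), the TGF-beta feedback gene Skil (log2 change 1.72, adjusted p = 1.95e-07), the G protein regulator Rgs1 (log2 change 1.52, adjusted p = 4.78e-07) and the aryl hydrocarbon receptor Ahr (log2 change 1.59, adjusted p = 0.000955). Itga1, the CD49a chain of a collagen receptor, rose from 0.837, 1.52 and 0.787 to 3.86, 2.86 and 2.21 CPM (log2 change 1.54, adjusted p = 0.000704).

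**Figure D3:**
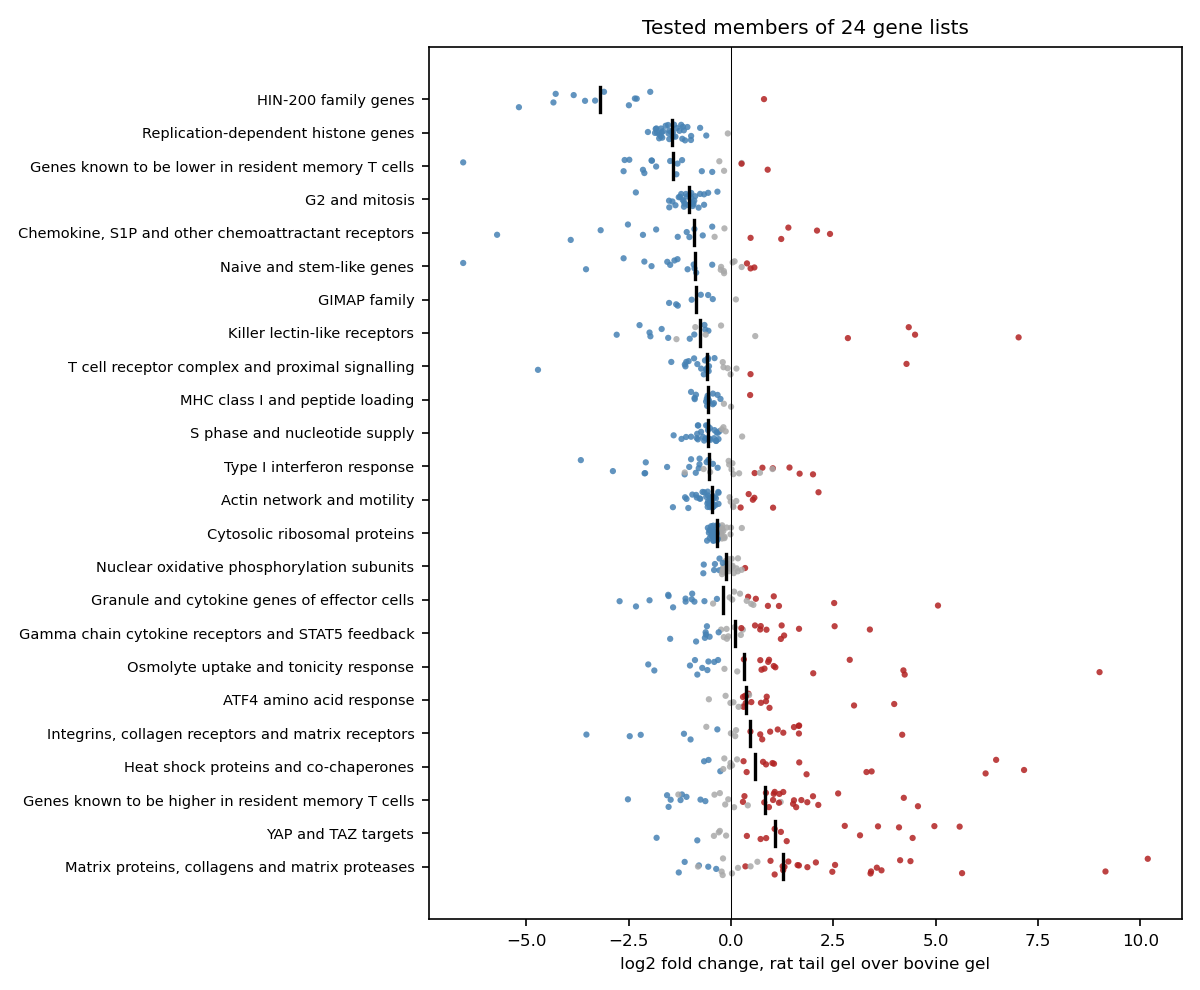
Log2 fold change, rat tail over bovine gel, of each tested member of 24 gene lists, with a red or blue point for members called higher or lower, a grey point for the others and a black bar at the list median. Members of the HIN-200, histone and G2 and mitosis lists lie on the low side almost without exception, those of the heat shock, YAP and matrix lists mostly on the high side, and the oxidative phosphorylation list stays near 0.

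Transcription factors of T cell fate moved in both directions (9 rose, 6 fell and 10 of 25 did not pass). The share called, 60%, is near the 54.7% of all genes. Gata3 fell 3.75-fold, from 69.3 ± 5.32 to 18.5 ± 2.31 CPM (log2 change -1.91, adjusted p = 5.75e-08). Irf4, a factor scaled by receptor signals, fell 1.97-fold (log2 change -0.98, adjusted p = 6.83e-07) and Runx1 fell (log2 change -1.44, adjusted p = 5.28e-05). Hic1, a transcriptional repressor, rose 2.74-fold (log2 change 1.45, adjusted p = 3.06e-07). Rbpj, the nuclear partner of Notch, rose 2.15-fold (log2 change 1.11, adjusted p = 4.44e-05), and Tox, a factor of exhausted cells, 2.13-fold (log2 change 1.09, adjusted p = 1.22e-05). In the KLF family Klf3 and Klf13 fell together with Klf2 (log2 change -2.11, adjusted p = 2.28e-05 and log2 change -1.33, adjusted p = 2.04e-07), and Klf4 rose from 1.84, 2.21 and 3.4 to 12.4, 10.4 and 13.2 CPM (log2 change 2.26, adjusted p = 8.43e-06), with 0.538 ± 0.153 CPM in media. Of 24 naive and stem-like genes 14 fell and 3 rose (median -0.87). Lef1, partner factor of Tcf7, fell 2.94-fold (log2 change -1.55, adjusted p = 2.92e-07) and the genome organiser Satb1 2.47-fold (log2 change -1.30, adjusted p = 1.04e-06). The costimulator Cd27 fell 2.6-fold (log2 change -1.38, adjusted p = 2.21e-07). Bach2, a repressor of effector genes, rose (log2 change 0.39, adjusted p = 0.0151), a call lost without bovine replicate 1 (adjusted p = 0.0631) and with GC and length offsets (adjusted p = 0.195).

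The T cell receptor and its proximal signalling genes were mostly lower in rat tail gel. Of 26 genes of this list, which also holds the surface proteins Cd7 and Cd24a, 19 fell, 2 rose and 5 did not pass (median -0.59). The constant regions fell by nearly the same amount: Trac from 481, 465 and 480.1 to 229, 238 and 262 CPM (log2 change -0.97, adjusted p = 9.07e-07), Trbc1 by log2 -0.85 (adjusted p = 2.82e-06) and Trbc2 by log2 -0.92 (adjusted p = 4.33e-06). The variable segments followed. Among 134 tested segments 116 fell and 0 rose by edgeR (median -1.07). By chain, 94 of 107 Trav segments (median -1.11) and 19 of 21 Trbv segments (median -0.83) fell. Their sum over the Trav segments was 227, 229 and 234 CPM in bovine and 99.5, 109 and 109 CPM in rat tail libraries. Segments of a family are alike in sequence, so single values are uncertain. The CD3 genes fell less or not detectably (Cd3g log2 change -0.54, adjusted p = 0.000163, Cd3d log2 change -0.59, adjusted p = 5.62e-05, Cd3e log2 change -0.08, adjusted p = 0.348), as did the kinase Lck (log2 change -0.56, adjusted p = 0.000213). Cd7, a surface protein of T cells, fell from 29.5, 38 and 61.5 to 1.82, 1.91 and 1.11 CPM (log2 change -4.71, adjusted p = 6.06e-06), and Cd2, an adhesion receptor, 2.74-fold (log2 change -1.46, adjusted p = 2.11e-07). Cd24a, a glycoprotein of immature lymphocytes, rose from 11.4, 8.22 and 7.21 to 181, 171 and 171 CPM, 19.5-fold (log2 change 4.29, adjusted p = 3.21e-09). The kinase Zap70 rose from 213 ± 11.3 to 296 ± 18 CPM (log2 change 0.48, adjusted p = 0.000396), which GC and length offsets brought to log2 0.03 (adjusted p = 0.752 by edgeR).

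Genes induced by receptor signals split. Egr1, an early growth response factor, fell from 61.2, 58.6 and 31.4 to 7.21, 6.32 and 6.64 CPM (log2 change -2.91, adjusted p = 5e-06), and Fos (log2 change -1.71, adjusted p = 5.28e-05), Fosb (log2 change -1.44, adjusted p = 2.27e-05) and the mRNA decay factor Zfp36 (log2 change -1.99, adjusted p = 7.88e-08) fell. Jun rose 2.88-fold, from 27.9 ± 2.5 to 80.5 ± 20.7 CPM (log2 change 1.53, adjusted p = 0.000127), the MAP kinase phosphatase Dusp10 6.24-fold (log2 change 2.64, adjusted p = 3.24e-09) and Ier3 4.78-fold (log2 change 2.26, adjusted p = 1.97e-06). In the list of immediate early genes 11 of 33 rose and 14 fell. Among 22 genes induced by the receptor 8 rose and 10 fell. Irf8 went from 32.8 ± 6.97 to 163 ± 14.3 CPM (log2 change 2.32, adjusted p = 1.86e-07) and the costimulatory receptor Tnfrsf4 (OX40) from 6.03 ± 1.18 to 38 ± 3.44 CPM (log2 change 2.65, adjusted p = 4.63e-08).

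Among receptors of the gamma chain cytokines and STAT5 feedback genes 11 of 27 rose, 8 fell and 8 did not pass. Il2ra, the high-affinity chain CD25, was at 321, 332 and 286 CPM in bovine and 626, 623 and 1061 CPM in rat tail libraries (log2 change 1.30, adjusted p = 8.07e-05), with replicate 3 the highest of the rat tail libraries. The STAT5 feedback inhibitor Cish rose 5.78-fold, from 25 ± 6.27 to 144 ± 32.5 CPM (log2 change 2.53, adjusted p = 3.14e-05), and Socs3 3.17-fold (log2 change 1.66, adjusted p = 3.83e-07). Il9r rose from 0.499 ± 0.357 to 5.2 ± 1.38 CPM (log2 change 3.39, adjusted p = 8.4e-05, and log2 4.15 without bovine replicate 1). Il4ra (log2 change -0.85, adjusted p = 1.88e-06) and the cyclin Ccnd2 (log2 change -0.62, adjusted p = 0.00073) fell, as Il7r did. In the TGF-beta list 9 of 22 tested genes rose and 7 fell. Its receptors Tgfbr1 and Tgfbr2 (log2 change -1.09, adjusted p = 1.55e-05 and log2 change -0.92, adjusted p = 1.03e-06) and the mediator Smad3 (log2 change -0.98, adjusted p = 3.57e-07) fell. The targets Pmepa1 (5.85-fold, log2 change 2.55, adjusted p = 3.65e-07) and Ltbp3 (log2 change 3.36, adjusted p = 3.43e-06) rose.

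Effector genes moved in both directions. Gzmb, the granzyme of cytotoxic granules, was at 615, 470.0 and 237 CPM in bovine and 856, 769 and 1106 CPM in rat tail libraries (log2 change 1.05, adjusted p = 0.042). Gzma fell from 25.5 ± 13.8 to 3.79 ± 1.4 CPM (log2 change -2.72, adjusted p = 0.0182) and perforin, Prf1, did not pass (log2 change 0.55, adjusted p = 0.283, interval -0.37 to 1.46). Bovine replicate 3 was the lowest of its group for Gzmb, and the groups stayed apart by less than the bovine libraries spread. The calls of Gzmb and Gzma rested on single libraries, and that of Gzmb also on the settings of the fit. Gzmb was not called without bovine replicate 2 (adjusted p = 0.0789), bovine replicate 3 (0.0643), rat tail replicate 1 (0.0643), rat tail replicate 3 (0.111) or media replicate 1 (0.0675). It was also not called by edgeR with the 6 gel libraries alone (adjusted p = 0.0547) or with no filter beyond 1 count (0.14). Gzma was lost without bovine replicate 1 (0.0675) or rat tail replicate 3 (0.0543). Il10, an anti-inflammatory cytokine, rose from 0.0558, 0.361 and 0.228 to 7.84, 7.26 and 5.33 CPM (log2 change 5.06, adjusted p = 8.47e-06), whereas Ifng fell at a low level, from 0.971 ± 0.32 to 0.502 ± 0.175 CPM (log2 change -0.96, adjusted p = 0.0235), and Tnf fell (log2 change -0.34, adjusted p = 0.00424). The Ifng call was lost without bovine replicate 1 (adjusted p = 0.121), rat tail replicate 2 (0.0547) or rat tail replicate 3 (0.0785), and that of Tnf with library totals (0.136). The list counted 7 rises and 13 falls in 28 tested genes. Killer lectin-like receptors fell in 11 and rose in 4 of 20 tested genes (median -0.76). Klrd1, the CD94 chain, fell from 261, 298 and 266 to 88.2, 78.6 and 41.3 CPM (log2 change -1.99, adjusted p = 3.24e-05) and Klrk1, which encodes NKG2D, 2.89-fold (log2 change -1.53, adjusted p = 0.00114). Klrb1b went from 0.391, 0.16 and 0.102 to 36.4, 30.2 and 20.3 CPM (log2 change 7.02, adjusted p = 9.71e-07) and its neighbour Klrb1c from 0.436 ± 0.314 to 8.68 ± 1.11 CPM (log2 change 4.34, adjusted p = 5.79e-06), at log2 7.82 and 5.05 without bovine replicate 1. Copies of this family are similar, so the level of a single copy is uncertain. Among inhibitory receptors Pdcd1 (PD-1) rose 2.43-fold (log2 change 1.28, adjusted p = 2e-05) and Cd160 and the collagen receptor Lair1 fell 5.57-fold and 5.54-fold (log2 change -2.48, adjusted p = 5.3e-07 and log2 change -2.47, adjusted p = 4.36e-08). This list counted 5 rises and 6 falls in 18 genes, 61.1% called against 54.7% of all genes.

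The HIN-200 genes, interferon-inducible proteins with DNA-binding domains that lie side by side on chromosome 1, fell as a family. Of 13 genes 12 were tested, 11 fell and 1 rose (median -3.21), and Ifi202b had 0 counts in the 6 libraries. Ifi213 was at 31, 43.7 and 48.5 CPM in the bovine and 0.987, 1.47 and 0.794 CPM in the rat tail libraries, 36.2-fold lower (log2 change -5.18, adjusted p = 4.18e-08). Ifi206 was at 96.3, 119.6 and 126 and 6.73, 6.4 and 3.72 CPM (log2 change -4.33, adjusted p = 2.33e-08), and Ifi208 at 52.4, 58.5 and 82.2 and 3.56, 3.39 and 2.98 CPM (log2 change -4.28, adjusted p = 3.16e-08). All rat tail libraries were below all bovine libraries in these members, as the rule for naming the largest changes required. Ifi214 fell 14.3-fold (log2 change -3.84, adjusted p = 1.2e-08) and Ifi209 11.8-fold (log2 change -3.56, adjusted p = 1e-08). Ifi203 fell 8.57-fold (log2 change -3.10, adjusted p = 3.44e-07) and Mndal 4.92-fold (log2 change -2.30, adjusted p = 2.99e-07). The low members Ifi204, Ifi205, Ifi207 and Ifi211 fell by log2 -2.49, -1.97, -3.32 and -2.34, Ifi207 by -4.13 without rat tail replicate 1. Aim2, the inflammasome sensor of DNA at the edge of the cluster, rose from 30.9, 28.1 and 28.4 to 56.4, 54.4 and 42.2 CPM (log2 change 0.81, adjusted p = 0.000115). Several members are similar in sequence and Mndal overlaps Ifi203 and Ifi211, so reads may be split among them.

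Stretches of 6 promoters of the family are shown because they share an interferon-stimulated element, the sequence bound by interferon regulatory factors. The motif searched was GAAA, any 2 bases and GAAA again, on both strands and within the 250 bases before each RefSeq start site (GRCm38.p6). Matches stand in capitals, and each line reads 5′ to 3′ on the strand of its gene.
Ifi206: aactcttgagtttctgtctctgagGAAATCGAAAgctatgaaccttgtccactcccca
Ifi208: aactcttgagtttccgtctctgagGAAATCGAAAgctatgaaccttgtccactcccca
Ifi213: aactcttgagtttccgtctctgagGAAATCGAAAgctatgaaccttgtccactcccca
Ifi214: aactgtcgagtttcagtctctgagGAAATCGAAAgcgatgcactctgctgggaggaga
Ifi207: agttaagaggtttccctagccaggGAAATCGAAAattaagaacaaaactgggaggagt
Ifi205: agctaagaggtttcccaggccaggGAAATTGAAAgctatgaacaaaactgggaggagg
They lie at chr1:173491325-173491382, minus strand (Ifi206), chr1:173673583-173673640, plus strand (Ifi208) and chr1:173599312-173599369, minus strand (Ifi213). The others lie at chr1:173536003-173536060, minus strand (Ifi214), chr1:173741817-173741874, minus strand (Ifi207) and chr1:174031856-174031913, minus strand (Ifi205). The motif was present in 9 of the 12 HIN-200 genes with a promoter entry, a gene being counted if any of its entries held it. Ifi203 had an entry with the motif and an entry without it. Of single promoters 2.98% held the motif, and of the 11130 tested genes with an entry 359 did. All 9 HIN-200 genes with the motif fell. Of the 3 without a match Ifi209 fell, Aim2 rose and Ifi202b had 0 counts. Among the other interferon genes 10 of 25 with an entry held it, of which 2 rose, 5 fell and 3 did not pass. Over all 359 tested genes with the motif 25.9% were higher and 38.2% lower in rat tail gel, against 34% and 28.3% of tested genes with a promoter entry.

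**Figure D4:**
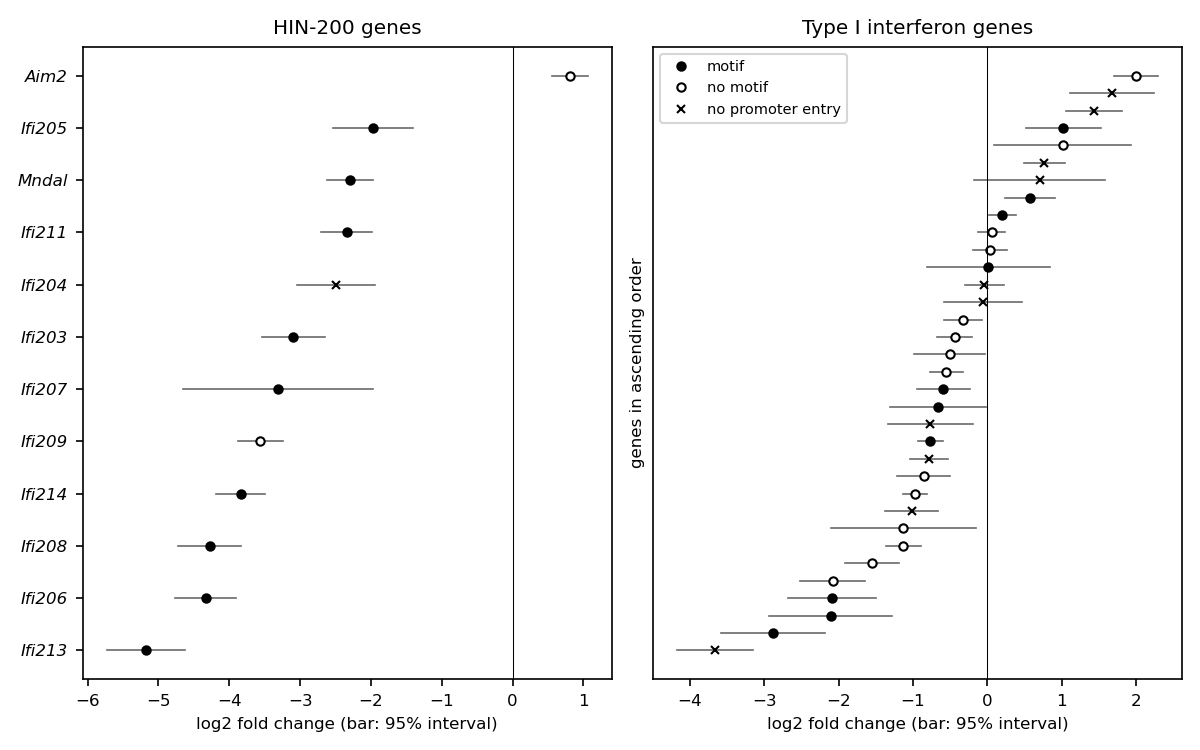
Log2 fold change, rat tail over bovine gel, with its 95% interval for the tested HIN-200 genes (named) and genes of the type I interferon list (in ascending order), filled points for genes whose promoter window holds the interferon-stimulated motif, open points for those without it and crosses for those without a promoter entry. Of the HIN-200 genes only Aim2 lies above 0, and the interferon genes lie on both sides of 0 with and without the motif.

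Other interferon genes did not fall as one. Of 34 tested 17 fell, 6 rose and 11 did not pass (median -0.53). Rtp4 fell from 6.18 ± 1.05 to 0.482 ± 0.0274 CPM (log2 change -3.66, adjusted p = 2.53e-07), Cmpk2 4.22-fold (log2 change -2.08, adjusted p = 5.64e-06) and the regulator Irf7 2.94-fold (log2 change -1.56, adjusted p = 1.23e-05). Ifi27l2a rose 2.69-fold (log2 change 1.43, adjusted p = 3.14e-05), and Isg15 and Mx1 did not pass (log2 change 0.01, adjusted p = 0.979 and log2 change -0.06, adjusted p = 0.861). Genes of antigen presentation on MHC class I fell by a similar small amount, 17 of 20 with 1 rise and no change of 2-fold or more (median -0.55). H2-K1, B2m and the transporter Tap1 fell by log2 -0.58, -0.55 and -0.97, and Tapbp rose (log2 change 0.47, adjusted p = 0.000321). With GC and length offsets B2m (log2 -0.10, adjusted p = 0.417) and Tapbp (log2 0.11, adjusted p = 0.253) did not pass. In the GIMAP family of lymphocyte GTPases 7 of 8 fell and 0 rose. Gimap4 went from 887, 922 and 922 to 352, 392 and 367 CPM (log2 change -1.30, adjusted p = 1.27e-07), and Gimap5 did not pass (log2 change 0.12, adjusted p = 0.192). Of 7 Schlafen genes, a family that holds regulators of T cell quiescence, 4 fell and 2 rose (median -0.74). Slfn2, Slfn3, Slfn8 and Slfn9 fell by log2 -0.81, -0.75, -0.80 and -0.74, and Slfn1 (log2 change 0.51, adjusted p = 0.000139) and Slfn5 (log2 change 1.68, adjusted p = 0.000493) rose.

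Receptors for collagen and other matrix proteins changed in composition. Of 25 genes 21 were tested, 11 rose, 6 fell and 4 did not pass. Itga2, the CD49b chain that pairs with Itgb1 to bind fibrillar collagen, was at 12.2, 14.8 and 13.1 CPM in the bovine and 1.26, 1.07 and 1.16 CPM in the rat tail libraries, 11.5-fold lower (log2 change -3.53, adjusted p = 5.18e-09). Itga1, of the other main collagen-binding integrin, rose as given above, and their shared chain Itgb1 did not pass (log2 change 0.11, adjusted p = 0.623, interval -0.27 to 0.48). Ddr1, a receptor kinase for collagen, rose 3.16-fold, from 8.08 ± 1.31 to 25.7 ± 1.66 CPM (log2 change 1.66, adjusted p = 7.2e-07). Itga9 went from 0.141 ± 0.0932 to 2.44 ± 0.236 CPM (log2 change 4.18, adjusted p = 1.14e-06) and the laminin-binding chain Itga3 rose 2.43-fold (log2 change 1.28, adjusted p = 1.15e-05). Among matrix proteins and matrix enzymes 35 of 48 were tested and 22 rose, 20 of them 2-fold or more, while 5 fell (median 1.28). Spp1, which encodes osteopontin, went from 0.446, 0.922 and 0.711 to 46.2, 34 and 21.4 CPM (log2 change 5.64, adjusted p = 3.7e-07), and Col1a1, a chain of type I collagen, from 0.335, 0.361 and 0.305 to 4.88, 3.83 and 4.11 CPM (log2 change 3.68, adjusted p = 1.49e-07). Lox, which cross-links collagen, went from 0 counts to 2.15, 1.77 and 1.22 CPM, at least 57.4-fold higher. The protease gene Adamts6 rose 4.21-fold, from 22.4 ± 2.92 to 94.5 ± 4.57 CPM (log2 change 2.07, adjusted p = 2.87e-07). P4ha1, a collagen prolyl hydroxylase, fell (log2 change -1.13, adjusted p = 6.82e-06). Col1a2 and Col3a1, of type I and type III collagen, did not pass the filter on low counts.

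Genes of sensing and shape moved apart from each other. Of 19 tested targets and members of the YAP and TAZ pathway, which responds to stiffness and spreading, 13 rose and 2 fell (median 1.07). Its DNA-binding partners Tead1 (from 0.258 ± 0.152 to 12.2 ± 9.54 CPM, log2 change 5.58, adjusted p = 9.94e-05, and log2 4.73 without rat tail replicate 3) and Tead3 (from 0.455 ± 0.0991 to 8.04 ± 0.373 CPM, log2 change 4.10, adjusted p = 2.36e-08) rose, and Yap1 rose at a low level (0.897 ± 0.338 to 2.05 ± 0.565 CPM, log2 change 1.22, adjusted p = 0.0119). Ankrd1, a classic target, had 0 counts in both gels, and Ccn1 and Ccn2 had at most 5 counts over the 3 libraries of a gel. Genes of actin and motility fell in 35 of 46 and rose in 6 (median -0.45, with 23 falls under library totals and 3 rises with GC and length offsets), with a summed level of 32231 to 32390 CPM in bovine and 22293 to 22595 CPM in rat tail libraries. Flna, which cross-links actin, fell 2.12-fold (log2 change -1.08, adjusted p = 4.85e-07), Coro1a 2.17-fold (log2 change -1.12, adjusted p = 1.55e-06) and thymosin Tmsb10 2.67-fold (log2 change -1.42, adjusted p = 5.42e-07), while the GTPase Rhob rose 4.4-fold (log2 change 2.14, adjusted p = 2.39e-07). Vim, the vimentin filament of leukocytes, was at 1124, 1142 and 1149 CPM in bovine and 172, 181 and 279 CPM in rat tail libraries, 5.4-fold lower (log2 change -2.43, adjusted p = 3.87e-07), with rat tail replicate 3 above the other rat tail libraries. The lamin Lmnb1 fell 2.25-fold (log2 change -1.17, adjusted p = 8.4e-08). Lmna, the lamin that scales with tissue stiffness, rose from 5.49 ± 1.07 to 14 ± 2.47 CPM (log2 change 1.35, adjusted p = 0.000648). In all 12 of 16 genes of filaments and the nuclear envelope fell.

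Rap1, the GTPase that switches integrins on, had changes on both its activating and its inactivating side. The inactivator Rap1gap2 fell from 53.9, 58.3 and 53.9 to 3.14, 3.19 and 2.07 CPM, 19.5-fold (log2 change -4.29, adjusted p = 2.04e-09). The activator Rasgrp2 fell as given above, Rap1a fell 1.91-fold (log2 change -0.93, adjusted p = 4.66e-07) and its effector Rassf5 1.8-fold (log2 change -0.85, adjusted p = 1.13e-06). Rap1gap rose from 0.492 ± 0.172 to 4.07 ± 0.341 CPM (log2 change 3.08, adjusted p = 1.68e-05). Of 27 tested genes of integrin activation and focal adhesions 7 rose (3 with GC and length offsets) and 13 fell. Piezo1, a channel opened by membrane tension, rose by little, from 90.5, 93.9 and 86.2 to 99.9, 105 and 119 CPM (log2 change 0.26, adjusted p = 0.0178). This rise did not pass without bovine replicate 3 (adjusted p = 0.0669) or rat tail replicate 3 (0.0735), and with GC and length offsets Piezo1 was lower (log2 -0.37, adjusted p = 0.000626 by edgeR). Larger rises were seen for the osmosensitive channel Trpv4 (0.915 ± 0.13 to 3.63 ± 0.185 CPM, log2 change 1.98, adjusted p = 3.06e-05), for Tmem63b (log2 change 1.07, adjusted p = 4.11e-05) and for the potassium channel Kcnk5 (35.8 ± 2.6 to 129.8 ± 5.87 CPM, log2 change 1.86, adjusted p = 1.46e-08). Falls were seen for the T cell potassium channel Kcna3 (log2 change -1.24, adjusted p = 1.3e-05) and the calcium sensor Stim1 (log2 change -0.71, adjusted p = 2.08e-05). In all 7 of 16 tested channels rose and 7 fell (4 rises with GC and length offsets).

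Genes of the dividing cell were lower in rat tail gel. Of 30 genes of G2 and mitosis 30 fell and 0 rose by edgeR (median -1.03), and of 32 of S phase 28 fell (median -0.56). Cdc25b, the phosphatase that starts mitosis, was at 349.5, 348 and 368 CPM in bovine and 69, 76.7 and 67.5 CPM in rat tail libraries (log2 change -2.32, adjusted p = 4.39e-09). Ccna2, cyclin A, fell 2.85-fold (log2 change -1.51, adjusted p = 4.31e-07) and Cdc20, which starts anaphase, 2.1-fold (log2 change -1.07, adjusted p = 3e-07). The topoisomerase Top2a fell 1.96-fold (log2 change -0.97, adjusted p = 1.77e-05) and Mki67, the proliferation marker, 1.58-fold (log2 change -0.66, adjusted p = 0.000695). The spread between libraries of a gel was small against these differences. Rrm2, which supplies deoxynucleotides, fell 2.64-fold (log2 change -1.40, adjusted p = 2.02e-07) and Mcm2, of the replicative helicase, 1.23-fold (log2 change -0.30, adjusted p = 0.0239). The small fall of Mcm2 was lost without bovine replicate 1 or 2 (adjusted p = 0.0804 and 0.0706) or rat tail replicate 1 or 2 (0.0841 and 0.0685), and with library totals (0.282). Replication-dependent histone genes fell in 35 of 36 tested (median -1.44), from a summed level of 13142 to 15957 CPM in bovine to 5919 to 6621 CPM in rat tail libraries. H2bc3 went from 723, 632 and 624 to 161, 171 and 154 CPM (log2 change -2.03, adjusted p = 1.46e-07) and H2bc7 from 215, 180.3 and 178 to 52.9, 61.5 and 55.7 CPM (log2 change -1.75, adjusted p = 1.6e-07), and copies of this family are similar enough for reads to be split. These mRNAs lack long poly(A) tails, and their counts here come from libraries depleted of ribosomal RNA. Among inhibitors of the cycle Cdkn1a, which encodes p21, rose 2.41-fold, from 35.2 ± 5.45 to 84.7 ± 9.55 CPM (log2 change 1.27, adjusted p = 9.58e-06), and Cdkn2c (log2 change -1.95, adjusted p = 4.14e-07) and Cdkn1b (log2 change -0.68, adjusted p = 5.69e-05) fell.

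Promoters of 3 mitotic and 2 histone genes are shown because they share CCAAT boxes, the element bound by NF-Y in many genes of the cycle. CCAAT was searched on both strands (ATTGG on the other), and matches stand in capitals.
Cdc20: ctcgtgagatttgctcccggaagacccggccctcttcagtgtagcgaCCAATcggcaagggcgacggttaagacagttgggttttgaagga
Top2a: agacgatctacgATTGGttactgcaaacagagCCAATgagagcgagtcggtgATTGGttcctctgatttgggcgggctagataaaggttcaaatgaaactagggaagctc
Ccnb2: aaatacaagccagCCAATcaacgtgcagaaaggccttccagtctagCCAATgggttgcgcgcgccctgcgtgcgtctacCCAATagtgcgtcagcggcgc
H2bc3: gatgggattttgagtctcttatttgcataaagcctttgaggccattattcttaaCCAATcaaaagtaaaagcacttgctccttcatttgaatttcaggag
H2bc7: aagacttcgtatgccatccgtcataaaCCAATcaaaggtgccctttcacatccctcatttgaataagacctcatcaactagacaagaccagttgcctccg
The stretches lie at chr4:118437353-118437443, minus strand (Cdc20), chr11:99024190-99024299, minus strand (Top2a), chr9:70421555-70421654, minus strand (Ccnb2), chr13:23746624-23746723, plus strand (H2bc3) and chr13:23574218-23574317, minus strand (H2bc7) of GRCm38.p6. A box was present in the 250 base window of 21 of 25 G2 and mitosis genes and 25 of 31 histone genes with an entry. A gene was counted if any of its entries held the box. Of single promoters 33.8% held it, and of the 11130 tested genes with an entry 4518 did. The box itself did not go with a direction over all genes: 33.3% of the 4518 tested genes that hold it were higher and 28.6% lower, near the 34% and 28.3% of all tested genes with an entry.

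**Figure D5:**
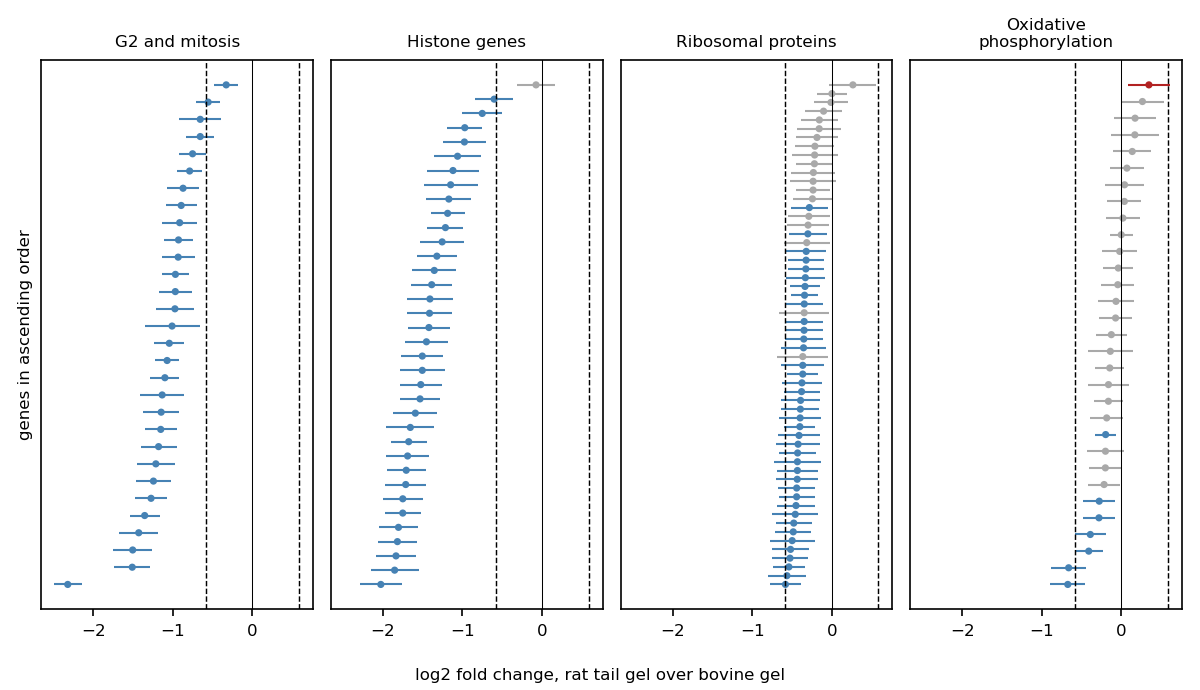
Log2 fold change, rat tail over bovine gel, with its 95% interval for each tested gene of 4 lists in ascending order, the dashed lines marking a 1.5-fold difference. All G2 and mitosis genes and nearly all histone genes lie below 0, the ribosomal protein genes lie close below 0, and most oxidative phosphorylation genes have their whole interval between the dashed lines.

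Cytosolic ribosomal proteins fell in 39 of 58 and rose in 0, 67.2% called against 54.7% of all genes. No change was of 2-fold or more (median -0.35). With library totals 8 fell, so this small shift depends on the scaling. Of 31 nuclear subunits of oxidative phosphorylation 1 rose, 7 fell and 23 did not pass, and 27 had a 95% interval within 1.5-fold, against 31% of all genes tested. With GC and length offsets 5 rose and 11 fell, and with library totals 2 rose and 3 fell. Mitochondrially encoded mRNAs rose in 3 of 13 and fell in 0, 23.1% called against 54.7% of all genes, which is below the background. Among the rises was mt-Co2, by log2 0.48 (adjusted p = 0.0183). With GC and length offsets 11 rose, and with library totals 5. The mt-Co2 call was lost without bovine replicate 1 (0.0692), rat tail replicate 1 (0.0794) or rat tail replicate 2 (0.064). Of 18 glycolysis genes 4 rose and 8 fell, 66.7% called against 54.7% of all genes. The hexokinase Hk1 rose 2.03-fold (log2 change 1.02, adjusted p = 3.87e-07) and the pyruvate kinase Pkm 1.51-fold (log2 change 0.59, adjusted p = 0.00425, and 0.159 with GC and length offsets), while the phosphofructokinase Pfkl (log2 change -1.03, adjusted p = 0.000101) and Tpi1 (log2 change -1.01, adjusted p = 0.00379) fell. Of 23 tested genes of the hypoxia response 12 fell and 5 rose, and 5 of the falls and 3 of the rises were of 2-fold or more. The largest rise of the list was that of Stc1, given above (log2 change 9.68). Pdk1, which keeps pyruvate out of mitochondria, fell 5.48-fold, from 283 ± 6.12 to 51.6 ± 4.79 CPM (log2 change -2.45, adjusted p = 5.15e-09). The sterol list counted 13 falls and 3 rises in 29 genes, 55.2% called against 54.7% of all genes, which is near the background. With library totals 6 rose and 10 fell, and with GC and length offsets 1 rose.

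The BCL-2 family counted 5 rises and 4 falls in 16 genes, 56.2% called, near the 54.7% of all genes, with 2 falls under library totals. Both protective and death-promoting members rose. Bcl2l1, which encodes protective BCL-XL, went from 35.4 ± 1.33 to 90.9 ± 10.4 CPM (log2 change 1.36, adjusted p = 2.89e-07). The death-promoting Bmf rose 2.99-fold (log2 change 1.58, adjusted p = 1.26e-06) and Bcl2l11, which encodes BIM, 2.22-fold (log2 change 1.15, adjusted p = 0.000498). Bbc3, which encodes PUMA, fell (log2 change -0.89, adjusted p = 0.000388), as did protective Mcl1 (log2 change -0.36, adjusted p = 0.00142, and 0.132 with library totals). Lysosomal genes rose in 11 and fell in 7 of 28 (4 falls with library totals), 64.3% called against 54.7% of all genes. The tetraspanin Cd63 went from 0.139, 0 and 0.102 to 5.5, 5.02 and 4.34 CPM (log2 change 5.75, adjusted p = 6.04e-07) and progranulin, Grn, rose 3.24-fold (log2 change 1.70, adjusted p = 2.2e-08), while cathepsin S, Ctss, fell 2.1-fold (log2 change -1.07, adjusted p = 2.21e-05). Of 17 clock genes 10 rose and 1 fell (6 rises with GC and length offsets), 64.7% called against 54.7% of all genes. Per2 and Per3, repressors of the clock, rose from 1.41 ± 0.181 to 5.89 ± 1.66 CPM and from 4.36 ± 0.496 to 12.8 ± 0.864 CPM (log2 change 2.06, adjusted p = 1.73e-05 and log2 change 1.56, adjusted p = 1.29e-06), and Nr1d2, a nuclear receptor of its other loop, fell (log2 change -1.29, adjusted p = 8.81e-06). Writers and erasers of DNA methylation fell in 7 and rose in 1 of 11, and with library totals 4 fell and 2 rose. Tet1, which oxidises methylcytosine, was at 9.37, 12.2 and 12.8 CPM in bovine and 4.13, 3.56 and 2.1 CPM in rat tail libraries (log2 change -1.81, adjusted p = 3.34e-05).

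Among targets of SRF and its partner MRTF, which respond to actin, 4 of 14 tested genes rose and 6 fell. Mical2, an actin-oxidising enzyme, was at 5.83, 4.17 and 4.49 CPM in bovine and 108, 86 and 72 CPM in rat tail libraries (log2 change 4.19, adjusted p = 1.36e-08), and zyxin, Zyx, rose (log2 change 0.42, adjusted p = 0.00857, and 0.584 with GC and length offsets). Tagln2, which binds actin, fell 1.84-fold (log2 change -0.88, adjusted p = 2.95e-05). NF-kB genes rose in 6 and fell in 3 of 18, 50% called against 54.7% of all genes (7 falls with GC and length offsets, 1 with library totals). Cd83, an activation marker, went from 3.03 ± 0.382 to 13.5 ± 5.8 CPM (log2 change 2.16, adjusted p = 0.000205), and the subunit Rel fell 2.36-fold (log2 change -1.24, adjusted p = 1.26e-05). Costimulatory receptors counted 5 rises and 5 falls in 16, 62.5% called against 54.7% of all genes. Icos was at 118, 111 and 106 CPM in bovine and 226, 181 and 198 CPM in rat tail libraries (log2 change 0.85, adjusted p = 1.56e-05). Cd226 fell 1.86-fold (log2 change -0.89, adjusted p = 0.000379).

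Long noncoding RNA genes rose more often than they fell. Malat1, a nuclear long noncoding RNA, took 0.195%, 0.208% and 0.276% of counts in the bovine and 1.44%, 1.47% and 1.11% in the rat tail libraries (exact permutation p = 0.1, two-sided, the smallest that 3 against 3 libraries can give), and rose 5.35-fold in the fit (log2 change 2.42, adjusted p = 1.45e-06). Neat1, the RNA of paraspeckles, rose 2.51-fold (log2 change 1.33, adjusted p = 2.97e-05), and Mir155hg, the host of miR-155, from 4.08 ± 0.387 to 30.7 ± 5.51 CPM (log2 change 2.92, adjusted p = 7.05e-08). Of 531 tested lincRNA genes 39.4% were higher and 13% lower, and of 513 antisense genes 43.1% were higher and 9.16% lower, against 33.5% and 29.3% of protein coding genes. Processed pseudogenes went the other way, 5.64% higher and 29.9% lower of 2555. Without a stated strand setting, reads of an antisense gene and its partner cannot be told apart.

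Levels that were alike in both gels were found for 6009 genes (31%), whose 95% interval lay within 1.5-fold. Of the 8775 genes that were not called 4254 met this, and for the other 4521 the interval reached past 1.5-fold. Among listed genes the narrowest such intervals belonged to Txnrd1 (-0.42 to -0.15), Ndufs1 (-0.33 to -0.07), Clk3 (0.09 to 0.35), Smad2 (-0.37 to -0.11), St3gal4 (-0.53 to -0.27) and Tsc22d4 (-0.54 to -0.27), all of them called at under 1.5-fold. The calls of Txnrd1, Ndufs1, Smad2 and St3gal4 were lost with library totals (adjusted p = 0.273, 0.699, 0.468 and 0.0531 by edgeR), and those of Ndufs1 and Clk3 also with GC and length offsets (0.0891 and 0.218), without rat tail replicate 1 (0.057, Ndufs1) and without bovine replicate 2 (0.0576, Clk3). Clk3, a splicing kinase, was at 124, 119.8 and 128 CPM in bovine and 143, 146 and 143 CPM in rat tail libraries.

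Counting used gene symbols, and the strand setting is not given in the sources used here, so reads of overlapping genes may be shared. Of the 273 genes named here, 121 overlap another annotated gene. Those that overlap a gene other than a predicted gene, a clone-named gene, a small RNA, a pseudogene or an antisense or intronic transcript named for its host include Aim2 (Cadm3), B2m (Patl2), Bace1 (Rnf214), Cacna1c (Dcp1b), Ccna2 (Exosc9), Ccr9 (Lztfl1 and Slc6a20a), Cd160 (Pdzk1), Cd27 (Vamp1), Cdc20 (Elovl1), Cdc25b (Spef1), Clk3 (Edc3), Coro1a (Bola2) and Csf1r (Hmgxb3). They also include Cxcr5 (Bcl9l), Cxcr6 (Fyco1), Gpr183 (Ubac2), Grn (Fam171a2), Ifi203 (Mndal), Ifi211 (Mndal), Irf7 (Phrf1), Itga1 (Pelo), Itga4 (Cerkl), Itgae (Haspin), Mndal (Ifi203 and Ifi211), Mzb1 (SPATA24) and Ndufs1 (Eef1b2). The same holds for P2ry13 (Med12l), Per3 (Camta1), Piezo1 (Ctu2), Rassf5 (Eif2d), Rtp4 (Masp1), Slc5a3 (Mrps6), St3gal6 (Dcbld2), Tap1 (Psmb9), Tapbp (Zbtb22), Tmem63b (Mrpl14), Tpi1 (Spsb2), Txnrd1 (Eid3) and Zyx (Epha1).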

How the data were processed

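Libraries were made from RNA depleted of ribosomal RNA (RiboCop, KAPA RNA HyperPrep), per the labels' protocols. The deposited file holds raw read counts per gene symbol. Among tools the submitters' processing notes list featureCounts, HISAT2, Picard and SAMtools, with GRCm38 and mm10 as builds. Not given in the sources used here are their versions, the annotation release and the strand setting.

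The 9 day 4 libraries were fitted together in edgeR 4.0.16 (R 4.3.3; filterByExpr, TMM factors, robust quasi-likelihood test, contrast rat tail minus bovine gel, Benjamini-Hochberg over 19392 genes, adjusted p under 0.05). Adjusted p-values in all texts are from this test unless another tool is named. The fit was first tested on simulated data. As the labels do not tie replicate numbers to separate cultures, p-values measure the spread between these libraries, which may be technical. Levels that were alike have a 95% interval within 1.5-fold. Gene lists (58 lists) are described by counts and medians and are not tested. Promoter windows came from RefSeq.

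Members and lists were chosen with earlier results of these data known. Named genes are the 12 largest changes in each direction (all libraries apart, 5 CPM or more), the members of each list among the 5 smallest adjusted p that its account turns on, 15 fixed genes, the 6 listed genes of narrowest interval within 1.5-fold and the 3 list members of largest rise and fall. Others were chosen after their values were seen. Results of some genes that the rule names are not reported here. Alternatives were other scalings, tests, filters, sets of libraries, a replicate block, and GC and length offsets.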

Additional observations from a re-analysis of the deposited data

How the results depend on the processing

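Leaving out 1 of the 9 libraries at a time gave 9346 to 11471 genes changed, 4872 to 5943 higher and 4474 to 5528 lower, 756 to 839 of the listed genes called (811 with all libraries) and 5102 to 6374 genes alike within 1.5-fold. The share of ribosomal RNA genes then differed by 0.137 to 4.23 percentage points and that of Malat1 by 1.05 to 1.23. DESeq2 called 10412 genes, limma-voom 10513, RLE factors 10597, the 6 gel libraries alone 10727 and GC and length offsets 10930. With library totals 3221 genes were lower. A test against a 2-fold minimum, which by construction calls fewer genes, left 2374 (1792 higher, 582 lower) and 215 listed genes. Without the 3 libraries of highest ribosomal RNA share 5485 genes (3079 higher, 2406 lower), 534 listed genes and 3420 alike genes remained, with fewer samples by construction, and 33 of 257 named genes lost their call. With GC and length offsets Piezo1 reversed (log2 -0.37), and the cause was not tested. Several list medians are close to 0, among them those of the channel (-0.0583), NF-kB (0.0069), immediate early (0.0616), interleukin 2 (0.0891) and NRF2 (-0.115) lists. These 5 are smaller in size than the median of all tested genes with library totals (0.15), so their direction is uncertain.

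The replicate number as a block called 11402 genes. Deviations of same-numbered libraries of both gels correlated at 0.0724, -0.0226 and 0.102. Rat tail replicate 2 correlated best with another number, so the main fit did not pair the libraries. On the second principal component (1.51% of the variance), however, the libraries of every group lay in the order of their numbers. They were at 7.82, 4.57 and -9.39 for bovine gel, 3.15, 1.44 and -5.57 for rat tail gel and 4.61, 2.4 and -9.05 for media. Whether equal numbers mark a shared source was not tested. Under the block Cd8a (adjusted p = 0.015 by edgeR), Jchain (0.0213), Prdm1 (8.37e-07), Prf1 (0.0211) and Trib3 (0.0118) passed, and no named gene lost its call. Depth limits genes near the floor of 3 counts, whose fitted changes rest on single libraries.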

Other observations

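Values outside the groups above stood apart as well, and are given without a test of their own beyond the fit over all genes. All were chosen after their values were seen. Igha, the constant region of the IgA heavy chain, was at 2.32, 1.36 and 2.08 CPM in bovine and 65, 82.2 and 90.1 CPM in rat tail libraries (log2 change 5.33, adjusted p = 5.15e-09), and 2.97, 2.06 and 2.45 CPM in media. Every rat tail library was far above every bovine library. Other genes of plasma cells were at low levels and moved in both directions. Jchain, the chain that joins IgA, did not pass (0.257 ± 0.02 against 1.14 ± 1.45 CPM, log2 change 2.07, adjusted p = 0.0636). Igkc, a light chain, had 0.22 CPM in bovine and 0.0279 CPM in rat tail gel. Mzb1, a plasma cell marker, had 0.0093 CPM in bovine and 0.0517 CPM in rat tail gel. Levels this low do not show whether these genes followed Igha.

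Adcy5, an adenylyl cyclase of heart and striatum, was at 0.0837, 0 and 0.127 CPM in bovine and 47.3, 36.5 and 35.4 CPM in rat tail libraries (log2 change 8.91, adjusted p = 3.15e-09, and log2 9.57 without bovine replicate 3). Cacna1c, the pore of L-type calcium channels, rose from 0.0739 ± 0.0647 to 13.9 ± 2.64 CPM (log2 change 7.57, adjusted p = 2.04e-07, and log2 6.94 without bovine replicate 1). In the other direction, Lrrn4 went from 1.34 ± 0.225 to 0.0845 ± 0.032 CPM (log2 change -4.03, adjusted p = 1.93e-06) and P2ry13, an ADP receptor, from 1.76 ± 0.0996 to 0.0895 ± 0.0611 CPM (log2 change -4.10, adjusted p = 5.02e-06, and log2 -4.84 without rat tail replicate 2).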
